A study of Mus musculus with 8 samples.

Results

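The 7 genes followed here belong to the MHC class II presentation route and were measured across sorted mouse lung epithelial cells: Cd74, H2-Aa, H2-Ab1, H2-Eb1, H2-DMa, H2-DMb1 and Ciita. They were taken by name and not by a cut on their values, but with earlier results of these data known. All 7 are among the 25124 gene symbols of the deposited table. Of these symbols 7512 averaged 10 or more normalized counts across the 8 libraries and were tested, 5 of the 7 among them. H2-DMa and Ciita lay below that mean and are given by their values. H2-DMb1 had a mean of 10.3, and of 7.29 without the wild-type libraries that received allergen, so it was tested only because those libraries were high.

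The cells came from lungs of C57BL/6 mice, were sorted by flow cytometry and are labelled as isolated airway epithelium. Their genotype was STAT3-WT (here WT) or STAT3-cKO (conditional knockout, here cKO), and each genotype received either house dust mite (HDM, an allergen extract) or PBS (saline). Each of the 4 groups held 2 libraries: WT HDM, WT PBS, cKO HDM and cKO PBS. STAT3 is the transcription factor downstream of interleukin-6 family receptors. The sources used here do not give the promoter or cell type that drove the deletion, the allergen schedule, or the age and sex of the animals. Whether the paired libraries of each group stem from different animals is not stated in the labels, and each p-value therefore speaks only of library-to-library spread, possibly technical.

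MHC class II molecules are pairs of an alpha and a beta chain that carry peptides from endosomes to the cell surface and show them to CD4+ T cells. The invariant chain, Cd74, occupies the groove of new class II pairs and steers them to the endosome, where H2-DM exchanges its last fragment for peptide. Dendritic cells, B cells and macrophages carry class II constantly, alveolar type 2 cells of the lung do so too, and most other epithelium only after interferon-gamma. Ciita is the coactivator that switches these genes on, and it does not bind DNA by itself but docks on factors at the X and Y boxes of their promoters.

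The shared promoter layout is shown because it is a feature that groups these genes without any expression value. RefSeq promoters (build GRCm38.p6, 250 bases before to 50 after an annotated start) were found for H2-Aa, H2-Eb1, H2-DMa and H2-DMb1, which is 4 of the 7 members; H2-Ab1, Cd74 and Ciita had no entry. The letters searched were GNAACT for the core of the X box and TGATTGG for the Y box, on either strand, and the motifs do not overlap each other. They were chosen after these sequences had been read, from the known order of the boxes. The last 130 bases before the start are printed 5′ to 3′ for the 3 members that held both on 1 strand in that order, with the X core and then the Y box in capitals.
H2-Aa, chr17:34287824-34287953, minus strand: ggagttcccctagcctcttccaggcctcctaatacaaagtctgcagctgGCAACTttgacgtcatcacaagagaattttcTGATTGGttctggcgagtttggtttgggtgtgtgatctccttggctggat
H2-Eb1, chr17:34305737-34305866, plus strand: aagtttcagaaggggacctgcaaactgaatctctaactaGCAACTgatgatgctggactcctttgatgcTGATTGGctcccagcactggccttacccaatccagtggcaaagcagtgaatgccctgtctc
H2-DMb1, chr17:34153061-34153190, plus strand: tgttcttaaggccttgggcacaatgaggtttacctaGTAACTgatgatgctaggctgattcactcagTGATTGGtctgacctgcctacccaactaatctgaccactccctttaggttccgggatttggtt

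The X core and Y box lay 25 bases apart in H2-Aa and H2-DMb1 and 24 apart in H2-Eb1. The X core began 81 bases before the start of H2-Aa, 91 before that of H2-Eb1 and 94 before that of H2-DMb1. Among all 32851 RefSeq promoters of the same length the X core letters occurred in 42.8% and the Y box letters in 7.82%, whereas the ordered pair with 10 to 40 bases between occurred in 0.274%, which is 90 promoters of 82 genes. Of the class II genes outside the members, H2-Eb2 held the pair, with 24 bases between, and H2-Oa, H2-Ob and H2-DMb2 held the Y box letters only. Neither of the 2 annotated H2-DMa starts held the pair. A match is a description of letters in this window, not of a bound site. X boxes spelled otherwise than GNAACT were not searched for. A gene without these letters, such as H2-Ob, is therefore not shown to lack an X box.

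**Figure D1:**
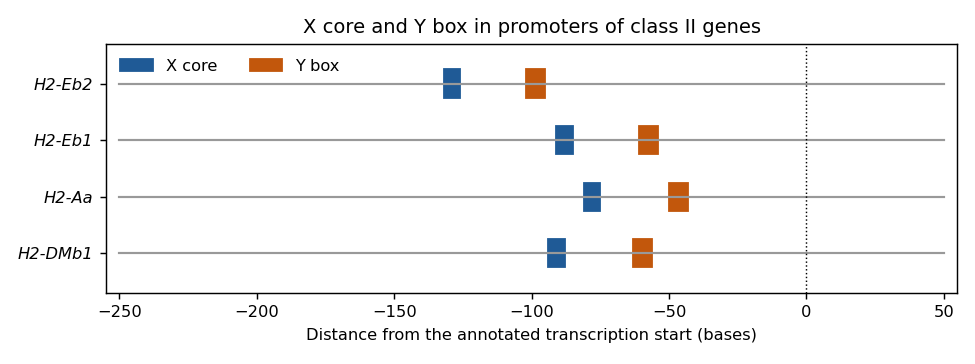
Positions of the X core (blue) and Y box (orange) in the 4 class II promoters that hold both, against distance from the annotated start in bases. The pair is 24 or 25 bases apart in each, and in H2-Eb2 it begins 132 bases before the start rather than 81 to 94.

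The libraries held 232556 to 593200 reads, a 2.55-fold range, so a gene at 0 reads may still have stood at up to 3 reads, or between 1.96 and 4.88 normalized counts. This floor and the intervals on shares of reads below cover counting error only. Epithelial transcripts were high in every library (summed Epcam, Cdh1, Krt8 and Krt18, 953 to 1354 normalized counts), as were club cell, ciliated cell and alveolar type 2 cell transcripts, while the basal cell list summed to at most 14.6 with Krt14 at 0 throughout. The libraries labelled airway epithelium thus all held alveolar type 2 transcripts. Stat3 was 75.8 and 40.9 normalized counts in WT PBS, 134 and 157 in WT HDM, 56.9 and 96.5 in cKO PBS and 76.9 and 92.2 in cKO HDM. Its cKO libraries were lower than WT under HDM without passing the test (log2 difference -0.78 ± 0.39, limma adjusted p = 0.549) and overlapped WT under PBS (0.41 ± 0.39, adjusted p = 0.845), so Stat3 did not check the genotype labels, and cKO below means the libraries labelled so.

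Both WT HDM libraries lay above the other 6 for 5 of the 7 class II genes. The exceptions were H2-DMa, whose first WT HDM library was below the second cKO HDM library, and H2-DMb1, whose first WT HDM library was below the first cKO PBS library. Among the 5, Ciita stood out by only 8.48 against 8.18 normalized counts, from 13 and 9 reads. The share of all genes with both WT HDM libraries on top was not counted. Summed over the 7 genes the level was 87.3 and 178 normalized counts in WT PBS, 689 and 1416 in WT HDM, 117 and 188 in cKO PBS and 213 and 143 in cKO HDM. As a share of all reads, the 7 genes took 0.178% (95% exact Clopper-Pearson interval 0.168 to 0.189) and 0.346% (0.325 to 0.367) in the WT HDM libraries, and 0.0237% to 0.0573% in the other 6. These are bulk libraries, in which more cells of a class II type and more class II RNA per cell cannot be told apart.

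**Figure D2:**
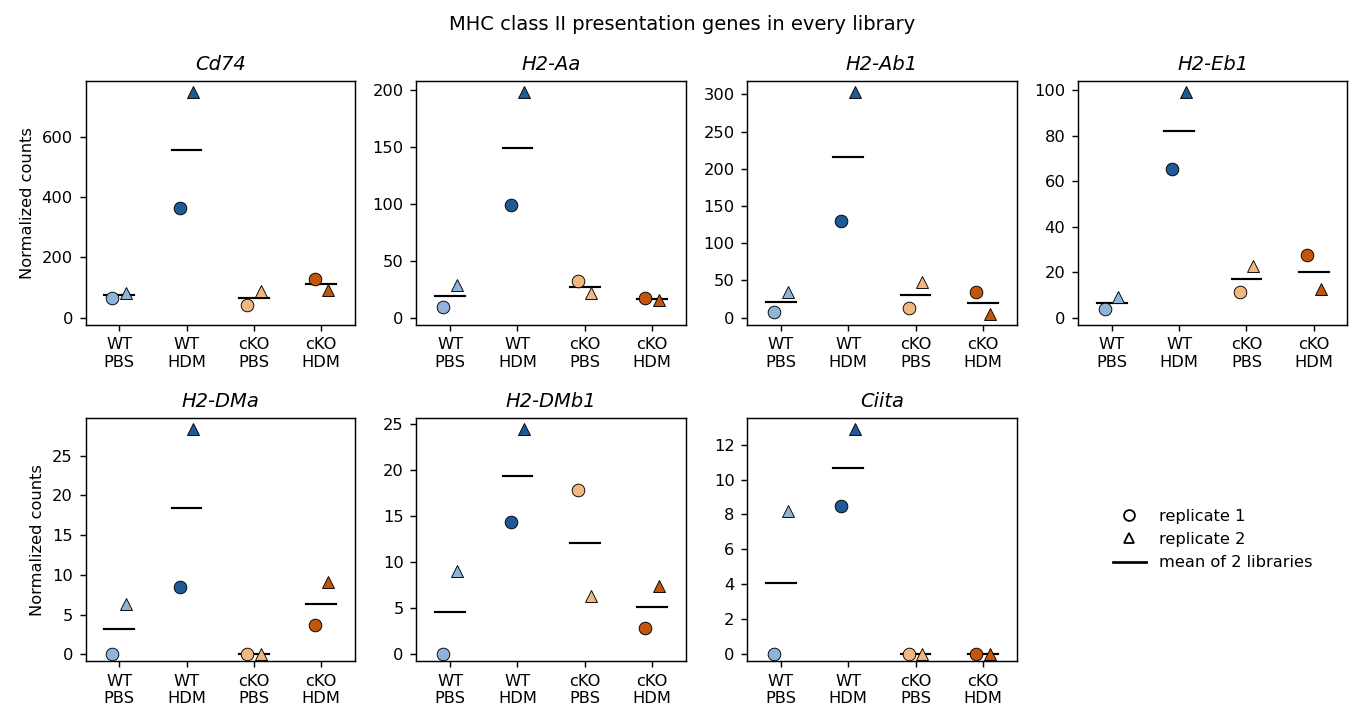
Normalized counts of the 7 class II presentation genes in each library by group, with circles for replicate 1, triangles for replicate 2 and a bar for the mean of 2; each panel has its own axis, starting just below 0. Both WT HDM libraries lie above the other 6 for all genes but H2-DMa and H2-DMb1, by a small margin for Ciita. Replicate 2 is the higher of the 2 WT HDM libraries for every gene.

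Cd74 encodes the invariant chain and lies at chr18:60803849-60812652 on the plus strand (RefSeq, GRCm38). It was 66.6 and 81.8 normalized counts in WT PBS, 364 and 749 in WT HDM, 42.3 and 88.9 in cKO PBS and 127 and 93.0 in cKO HDM. The WT HDM libraries were the 2 highest, and the cKO HDM libraries lay above both PBS groups by a small margin. Cd74 rose with HDM in WT by 2.81 ± 0.40 on the log2(value + 1) scale (limma adjusted p = 0.0034), and it was the gene with rank 9 of 7512 by p. The cKO HDM libraries were lower than WT HDM by a log2 difference of -2.25 ± 0.40 (limma adjusted p = 0.0153).

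H2-Aa and H2-Ab1 encode the alpha and beta chains of I-A, the class II molecule that C57BL/6 mice display. H2-Aa (chr17:34282744-34287823, minus strand) was 9.19 and 29.1 normalized counts in WT PBS, 99.1 and 199 in WT HDM, 32.5 and 21.6 in cKO PBS and 17.4 and 15.8 in cKO HDM. It rose with HDM in WT by 3.01 ± 0.60 (limma adjusted p = 0.0403) and fell in cKO HDM against WT HDM by 3.01 ± 0.60 on the log2 scale (adjusted p = 0.0324). In cKO both HDM libraries lay below both PBS libraries, the opposite order to WT.

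H2-Ab1 (chr17:34263227-34269418, plus strand) was 7.65 and 34.6 normalized counts in WT PBS, 130 and 303 in WT HDM, 13.0 and 48.3 in cKO PBS and 34.1 and 4.98 in cKO HDM. Outside WT HDM its libraries differed more within each group than the groups did from each other. Its log2 differences were among the largest of the tested members, 3.51 ± 0.86 for HDM in WT and -3.78 ± 0.86 for cKO against WT under HDM, but neither passed (limma adjusted p = 0.101 and 0.0723).

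H2-Eb1 (chr17:34305867-34316674, plus strand) encodes the beta chain of I-E, whose alpha chain gene is inactive in this strain; the pseudogene symbol H2-Ea-ps was at 0 reads in all 8 libraries. H2-Eb1 was 3.83 and 9.09 normalized counts in WT PBS, 65.2 and 99.3 in WT HDM, 11.4 and 22.9 in cKO PBS and 27.6 and 12.5 in cKO HDM. It rose with HDM in WT by 3.55 ± 0.71 (limma adjusted p = 0.0403). Both cKO PBS libraries were above both WT PBS libraries, and cKO HDM stood at a log2 difference of -2.05 ± 0.71 from WT HDM (adjusted p = 0.326).

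H2-DMa and H2-DMb1 encode the 2 chains of H2-DM, the peptide exchange factor. H2-DMa (chr17:34119693-34139101) was 0 and 6.37 normalized counts in WT PBS, 8.48 and 28.4 in WT HDM, 0 in both cKO PBS libraries and 3.63 and 9.14 in cKO HDM, from 58 reads in all. Unlike the other members it was detected in both cKO HDM libraries and neither cKO PBS library. By the mean, cKO HDM was at least 1.47-fold higher against a floor of 3 reads per library. The first cKO HDM library alone, at 3.63, lay below the mean cKO PBS floor of 4.34. WT HDM was at least 4.24-fold higher than cKO PBS on the same floor.

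H2-DMb1 (chr17:34153191-34160229) was 0 and 9.09 normalized counts in WT PBS, 14.3 and 24.5 in WT HDM, 17.9 and 6.35 in cKO PBS and 2.90 and 7.48 in cKO HDM. Only the first cKO PBS library reached into the WT HDM range. Its differences did not pass in any comparison (limma adjusted p = 0.620 for HDM in WT and 0.745 for cKO against WT under HDM). H2-DMb1 has a near-identical neighbour, H2-DMb2 (5.22 and 2.58 normalized counts in the WT HDM libraries and 0 reads elsewhere), and the sources used here do not say how reads shared by the 2 were counted.

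Ciita (chr16:10480014-10531064, plus strand) was 8.18 normalized counts in the second WT PBS library and 8.48 and 12.9 in the WT HDM libraries, with 0 reads in the other 5 libraries. These values rest on 9, 13 and 10 reads in that order. Against a floor of 3 reads per library, Ciita was at least 4.58-fold lower in cKO HDM than in WT HDM, and the first WT HDM library was close to the WT PBS library that held it. In a fit without the filter on low values the same difference did not pass (limma adjusted p = 0.383).

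Under HDM in WT, 3 of the 7 members rose, namely Cd74, H2-Eb1 and H2-Aa, while H2-Ab1 and H2-DMb1 were higher in both WT HDM libraries than in both WT PBS libraries without passing. Of all 7512 tested genes 0.506% rose and 0.0133% fell. Leaving aside H2-DMb1, which the WT HDM libraries carried past the filter, the log2 differences ran from 2.81 for Cd74 (6.99-fold, rank 97 of 7512 by size of rise) to 3.55 for H2-Eb1 (11.7-fold, rank 46), beside a median of -0.03 over all genes. edgeR's quasi-likelihood test and DESeq2 on the recovered reads called the same 3 genes.

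The HDM calls in WT rested on few libraries. With 1 library left out, limma called Cd74 alone without the first WT HDM library or without either cKO HDM library, and 0 of the 5 without the second WT HDM library or either WT PBS library. Leaving out either cKO PBS library gave 4 of 5, H2-Ab1 included. All 5 log2 differences were positive in each of these fits, but their size moved, from 2.29 to 3.33 for Cd74, 2.23 to 3.79 for H2-Aa, 2.49 to 4.53 for H2-Ab1, 3.01 to 4.08 for H2-Eb1 and 0.97 to 4.31 for H2-DMb1.

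In cKO, HDM moved 0 of the 5 tested members past the threshold in limma, edgeR and DESeq2, and 0 reached an unadjusted p under 0.05 in any of them. Of all tested genes 0.0532% rose in this comparison and 0% fell. Cd74 was higher in both HDM libraries (log2 difference 0.81, 95% interval -0.04 to 1.67), and H2-Aa was lower in both (-0.65, -1.93 to 0.63). H2-Ab1, H2-Eb1 and H2-DMb1 overlapped, at -0.86 (-2.69 to 0.97), 0.19 (-1.33 to 1.71) and -1.03 (-3.96 to 1.89). The upper bounds for H2-Aa, H2-Ab1, H2-Eb1 and H2-DMb1 lay below their fitted rise in WT, as did that for Cd74. This leaves out the error of the rise in WT and is no test of a genotype difference, which the interaction below is.

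Between genotypes under HDM, 2 of the 7 class II genes fell in cKO, Cd74 and H2-Aa, and the other tested members, H2-Ab1, H2-Eb1 and H2-DMb1, were lower in both cKO libraries without passing. Of all tested genes 0.519% fell and 0.0532% rose. Leaving aside H2-DMb1, the log2 differences ran from -3.78 for H2-Ab1 to -2.05 for H2-Eb1, beside a median of 0.02 over all genes. The WT HDM libraries enter both this comparison and that of HDM against PBS in WT, so the pair of results is not independent. edgeR and DESeq2 called the same 2 genes.

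These calls also turned on single libraries. Without the second WT HDM library or either cKO HDM library limma called 0 of the 5, without the first WT HDM library it called Cd74 alone, and without the second WT PBS library H2-Aa alone. Without either cKO PBS library it called 3. All 5 differences were negative in each of these fits, between -2.77 and -1.73 for Cd74, -3.50 and -2.51 for H2-Aa, -5.06 and -2.51 for H2-Ab1, -2.60 and -1.51 for H2-Eb1, and -2.34 and -1.22 for H2-DMb1.

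Under PBS no member passed between the genotypes, with 0 of 5 in limma, edgeR and DESeq2 and 0 at an unadjusted p under 0.05. Of all tested genes 0% rose and 0% fell in limma. The log2 differences of cKO from WT were -0.26 for Cd74 (95% interval -1.12 to 0.59), 0.65 for H2-Aa (-0.63 to 1.93), 0.58 for H2-Ab1 (-1.25 to 2.41), 1.3 for H2-Eb1 (-0.22 to 2.82) and 1.89 for H2-DMb1 (-1.03 to 4.82). Each interval includes 0 and reaches well above it for the H2 genes, so the genotypes are not shown to be alike.

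Whether the HDM difference itself depended on genotype was tested as an interaction. All 5 estimates were negative, at -1.99 ± 0.57 for Cd74, -3.66 ± 0.85 for H2-Aa, -4.36 ± 1.22 for H2-Ab1, -3.36 ± 1.01 for H2-Eb1 and -3.67 ± 1.94 for H2-DMb1, beside a median of 0.16 over all genes. In limma 0 of the 5 passed (adjusted p from 0.326 to 0.670), although 4 had an unadjusted p under 0.05, as did 584 of all 7512 genes. Of all tested genes 0.0266% passed as lower and 0% as higher. edgeR also called 0 members, and DESeq2 called 2 among its 26 lower and 1 higher genes, Cd74 (adjusted p = 0.0427) and H2-Aa (adjusted p = 0.0196).

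**Figure D3:**
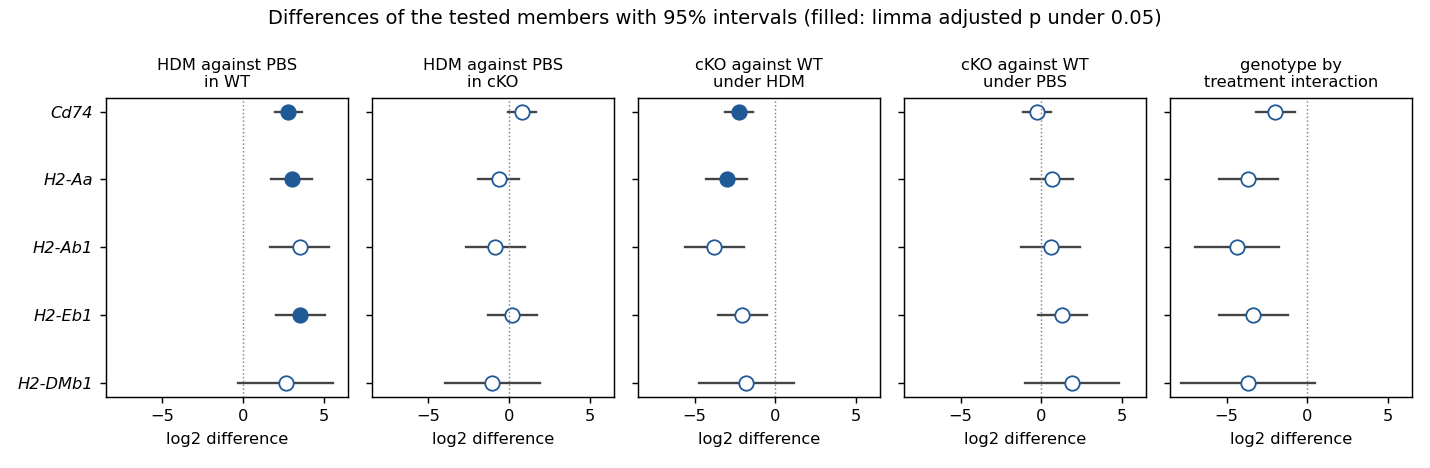
Log2 differences of the 5 tested class II genes with 95% intervals in the 5 comparisons; filled points passed at a limma adjusted p under 0.05. Cd74, H2-Aa and H2-Eb1 are filled for HDM in WT, Cd74 and H2-Aa for cKO against WT under HDM, and the intervals in cKO and under PBS all include 0.

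Per kilobase of transcript, which allows levels of different genes to be set side by side, the WT HDM order was Cd74 at 414 ± 202 normalized counts per kb (SD, n = 2), H2-Ab1 at 206 ± 117, H2-Aa at 152 ± 72.0, H2-Eb1 at 49.3 ± 14.4, H2-DMb1 at 13.8 ± 5.11, H2-DMa at 11.1 ± 8.48 and Ciita at 2.52 ± 0.737. Within each of the WT HDM libraries the order was the same, though H2-DMb1 and H2-DMa were close in the second (17.4 and 17.1). Taken across the libraries, the values of neighbours overlapped between Cd74 and H2-Ab1, H2-Ab1 and H2-Aa, and H2-DMb1 and H2-DMa. H2-Aa, H2-Eb1 and H2-DMb1 were separated from each other, and both H2-DM chains from Ciita. Invariant chain was thus the most abundant member by mean and the coactivator the least.

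The same order of roles held in the other groups only in part. In WT PBS, Cd74 was at 55.2 ± 8.02 normalized counts per kb (SD, n = 2), and H2-Ab1 (20.1 ± 18.1) and H2-Aa (19.6 ± 14.4) did not differ beyond their spread. In cKO HDM the figures were 81.8 ± 17.9 for Cd74, 18.6 ± 19.6 for H2-Ab1, 17.0 ± 1.18 for H2-Aa and 12 ± 6.40 for H2-Eb1, of which only Cd74 stood apart. In cKO PBS, Cd74 was at 48.8 ± 24.5, H2-Ab1 at 29.2 ± 23.7 and H2-Aa at 27.7 ± 7.92, with overlapping libraries. Cd74 made up 52.8% and 52.9% of the summed normalized counts of the members in WT HDM and 36.1% to 76.3% in the other libraries.

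The members followed each other across the libraries. Over the 10 pairs of tested members, Pearson's r of log2 values across the 8 libraries ran from 0.448 to 0.890 (median 0.847). These points share their libraries and depth and fall into 4 groups. The pairs with H2-DMb1 rest on a gene that only the WT HDM libraries carried past the filter. The second WT HDM library exceeded the first for each member, by 2.06 times for Cd74, 2.0 for H2-Aa, 2.33 for H2-Ab1, 1.52 for H2-Eb1, 3.35 for H2-DMa, 1.71 for H2-DMb1 and 1.52 for Ciita.

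Other genes of the class II region were near 0. H2-Oa had 0 reads in all 8 libraries, H2-Ob was 9.09 normalized counts in the second WT PBS library and 3.81 in the second cKO PBS library and at 0 reads elsewhere, and H2-Eb2 was 2.58 in the second WT HDM library only. H2-Oa and H2-Ob form H2-DO, which restrains H2-DM in B cells. None of the 5 region genes in the table reached the mean needed for a test.

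The list for endosomal processing and turnover of class II holds cathepsins and other proteases that cut antigen and invariant chain, with a protease inhibitor, a reductase and ubiquitin ligases. Of its 10 tested genes 0 passed in limma in any comparison; edgeR called 1, Ctss, for HDM in WT, and DESeq2 called 0. In limma 3 had an unadjusted p under 0.05 for HDM in WT and 3 for cKO against WT under HDM, beside 671 and 721 of all 7512 genes. The smallest p belonged to Ctsl, encoding cathepsin L (-1.68 ± 0.60 for cKO against WT under HDM, limma adjusted p = 0.346), and Ctsz, encoding cathepsin Z (1.33 ± 0.49 for HDM in WT, adjusted p = 0.380).
Ctss, which encodes the cathepsin that removes invariant chain in antigen-presenting cells, was named after its values were seen. It was 31.3 and 98.0 normalized counts in WT HDM, 10.9 in the first cKO HDM library and 0 reads in the other 5 (limma adjusted p = 0.442 for HDM in WT). Without WT HDM its mean was 1.81, so it was tested only because those libraries were high, and the edgeR call supports nothing. The median over the list was 0.84 for HDM in WT and -0.75 for cKO against WT under HDM. These medians and the unadjusted counts were taken with Ctss among the 10 genes.

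Of the 8 tested factors that bind class II promoters or act with CIITA, such as the RFX and NF-Y subunits, 0 passed in limma, edgeR or DESeq2 in any comparison, and 0 had an unadjusted p under 0.05. Their medians were 0.06 for HDM in WT and 0.27 for cKO against WT under HDM. Rfx5, the X box subunit, stood between 10.9 and 30.7 normalized counts over the 8 libraries. The smallest p belonged to Creb1 (-2.15 ± 1.24 for cKO against WT under PBS) and Nfya (-1.60 ± 0.99 for HDM in WT, limma adjusted p = 0.719).

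Interferon-gamma is the textbook inducer of Ciita outside professional antigen-presenting cells. Ifng itself and its target Cxcl9 had 0 reads in all 8 libraries. Of 8 tested genes of this axis 0 passed in limma or edgeR in any comparison, and DESeq2 called 1, Gbp2, for HDM in WT; 2 had an unadjusted limma p under 0.05 there, beside 671 of all 7512 genes. Gbp2, an interferon-induced GTPase, was 32.0 and 41.3 normalized counts in WT HDM, 11.4 in the second cKO PBS library, 5.81 and 7.48 in cKO HDM and 0 reads in the other 3 libraries (limma adjusted p = 0.296 for HDM in WT). Its mean without WT HDM was 4.12, so it too was tested only because those libraries were high, and the DESeq2 call supports nothing. The unadjusted count was taken with Gbp2 among the 8 genes.

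Costimulatory genes were mostly below the filter, with 1 of 8 tested and 0 passing in limma, edgeR or DESeq2. The tested gene, Icam1, an adhesion ligand, was 75.0 and 23.6 normalized counts in WT PBS and 162 and 91.5 in WT HDM (1.51 ± 0.56, limma adjusted p = 0.405). In cKO it was 22.8 and 57.1 in PBS and 50.1 and 38.2 in HDM libraries, and cKO stood at -1.46 ± 0.56 from WT under HDM (adjusted p = 0.400). Both differences had an unadjusted p under 0.05. Cd86 and Tnfsf4 had 0 reads in all libraries. Cd40, named after its values were seen, was 11.1 and 24.5 normalized counts in WT HDM and 0 reads in the other 6.

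MHC class I genes, which present cytosolic peptides to CD8+ T cells and of which 9 were tested, are neighbours of the class II genes in the same gene complex. H2-D1, a class I heavy chain, rose with HDM in WT by 1.32 ± 0.24 (limma adjusted p = 0.0197) and was the 1 of 9 that passed. It was also the single call among all the pathway genes outside the members, and that count was 0 without the second WT HDM library, either cKO HDM library or either WT PBS library. The list's median was 1.32 for HDM in WT and 1.13 for HDM in cKO, where 0 passed in limma or edgeR, 5 had an unadjusted p under 0.05 (584 of all 7512 genes did) and DESeq2 called H2-D1 and H2-K1 among its 21 higher genes. H2-D1 was 230 and 292 normalized counts in WT PBS, 571 and 739 in WT HDM, 233 and 203 in cKO PBS and 492 and 459 in cKO HDM. For H2-D1 both HDM groups lay above both PBS groups, as they did for Cd74 among the class II members. H2-Aa was lower in cKO HDM than in cKO PBS, and H2-Ab1, H2-Eb1 and H2-DMb1 overlapped there. The interaction median was -0.04 for class I, and the class II estimates given above ran from -1.99 to -4.36. The difference between the lists was not tested, and neighbouring class I genes may share reads. The class I medians and counts include H2-Q7, which averaged 5.24 normalized counts without WT HDM. It was tested only because those libraries were high.

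Transcripts of cells that carry class II constantly, and of other lung cells, moved with the class II genes. The pan-leukocyte list summed to 51.5 and 171 normalized counts in WT HDM and 1.53 to 13.0 in the other 6 libraries. Its defining gene Ptprc (CD45) was 12.4 and 37.4 in WT HDM, 3.64 in the second WT PBS library and 0 reads in the other 5. In the list and in this gene the second WT HDM library was the higher, as for the class II genes and the alveolar type 2 sum.

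The dendritic cell list of 12 genes summed to 39.1 and 42.5 normalized counts in WT HDM and 0 to 11.6 elsewhere, with Flt3 and Xcr1 at 0 reads in all libraries and Itgax at 2.61 and 9.02 in WT HDM. The macrophage and monocyte list of 16 genes summed to 121 and 373 in WT HDM and 25.5 to 65.8 elsewhere. Within it Csf1r was 16.3 and 43.8 in WT HDM and 0 reads in the other 6, Adgre1 1.3 and 6.45 in WT HDM and 0 reads in the other 6, and Siglecf was at 0 reads throughout. Cd14, the 1 tested gene of the list and named after its values were seen, was 56.7 and 39.97 in WT HDM and 25.5 to 59.8 elsewhere, so the groups overlapped. The B cell list summed to 13.7 and 36.1 in WT HDM and 0 to 6.37 elsewhere, with Cd79a at 2.61 and 2.58 in WT HDM and 0 reads in the other 6. The T cell list reached 2.61 and 10.3 in WT HDM and was at 0 reads elsewhere. Each of these 5 immune lists was highest in both WT HDM libraries, and their part in the class II result was not tested.

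Alveolar type 2 transcripts were higher in the same libraries. The 12-gene list summed to 4781 and 7012 normalized counts in WT PBS, 11629 and 17336 in WT HDM, 5606 and 6583 in cKO PBS and 5195 and 5676 in cKO HDM. Of its 12 tested genes 5 rose with HDM in WT (median 1.54) and 7 fell in cKO against WT under HDM (median -1.75) in limma. Sftpc, surfactant protein C, was 1519 and 2878 in WT HDM and 765 to 1289 elsewhere. Per Sftpc count the summed members were 0.454 and 0.492 in WT HDM, 0.114 and 0.138 in WT PBS, 0.248 and 0.178 in cKO HDM and 0.119 and 0.155 in cKO PBS, with cKO HDM above both PBS groups. Per summed alveolar type 2 count they were 0.0593 and 0.0817 in WT HDM, 0.0183 and 0.0254 in WT PBS, 0.0409 and 0.0252 in cKO HDM and 0.0209 and 0.0285 in cKO PBS, where cKO HDM overlapped both PBS groups. WT HDM was the highest on both scales, and the part of alveolar type 2 transcripts in the class II result was not tested. The alveolar type 1 list summed to 559 and 566 in WT HDM and 279 to 419 elsewhere, but its 5 tested genes did not move together. For HDM in WT the log2 differences were 1.52 for Ager and 1.55 for Cav1, against 0.51 for Clic5, 0.16 for Hopx and -0.06 for Aqp5. In limma 0 of the 5 passed there. For cKO against WT under HDM, Ager (-1.69) and Cav1 (-2.501) fell. Aqp5 (-0.98), Hopx (0.299) and Clic5 (0.316) did not pass.

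Endothelial, fibroblast and red cell transcripts were also highest in WT HDM. The endothelial list summed to 908 and 942 normalized counts there against 174 to 329 elsewhere (Pecam1 110 and 91.5 against 0 to 27.7), and per endothelial count the summed members were 0.759 and 1.5 in WT HDM and 0.356 to 1.18 elsewhere, so the groups overlapped. The fibroblast and smooth muscle list summed to 1182 and 1231 in WT HDM against 34.2 to 109 elsewhere, and the red cell list to 229 and 424 against 3.32 to 36.4. The second WT HDM library exceeded the first by little in the endothelial, fibroblast and dendritic cell lists. It exceeded the first by more in the class II, alveolar type 2, leukocyte, macrophage, B cell and red cell sums. Per leukocyte count the summed members were 13.4 and 8.26 in WT HDM and 9 to 57 elsewhere. Outside WT HDM the leukocyte list held only 2 to 14 reads per library, so those ratios are loose. Per summed count of the 4 epithelial genes the members were 0.723 and 1.27 in WT HDM and 0.0707 to 0.163 elsewhere. That epithelial sum was itself lowest in the WT HDM libraries. The part of these transcripts in the class II result was not tested.

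Ciliated cell transcripts went the other way, at 1387 and 1586 normalized counts in WT HDM and 2156 to 2618 elsewhere (Foxj1 380 and 395 against 485 to 810). Club cell transcripts summed to 5408 and 7280 in WT HDM and 6187 to 14069 elsewhere (Scgb1a1 1545 and 2440 against 1589 to 4213). Epcam ran from 99.7 to 179 with the groups overlapping, and Krt18 overlapped too. Cdh1 and Krt8 were lower in both WT HDM libraries than in all others. The epithelial list of these 4 genes summed to 953 and 1111 in WT HDM and 1173 to 1354 elsewhere. Krt5 stood at no more than 12.7. The ciliated sums of WT HDM did not overlap those of the other libraries, whereas the club cell sums did.

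**Figure D4:**
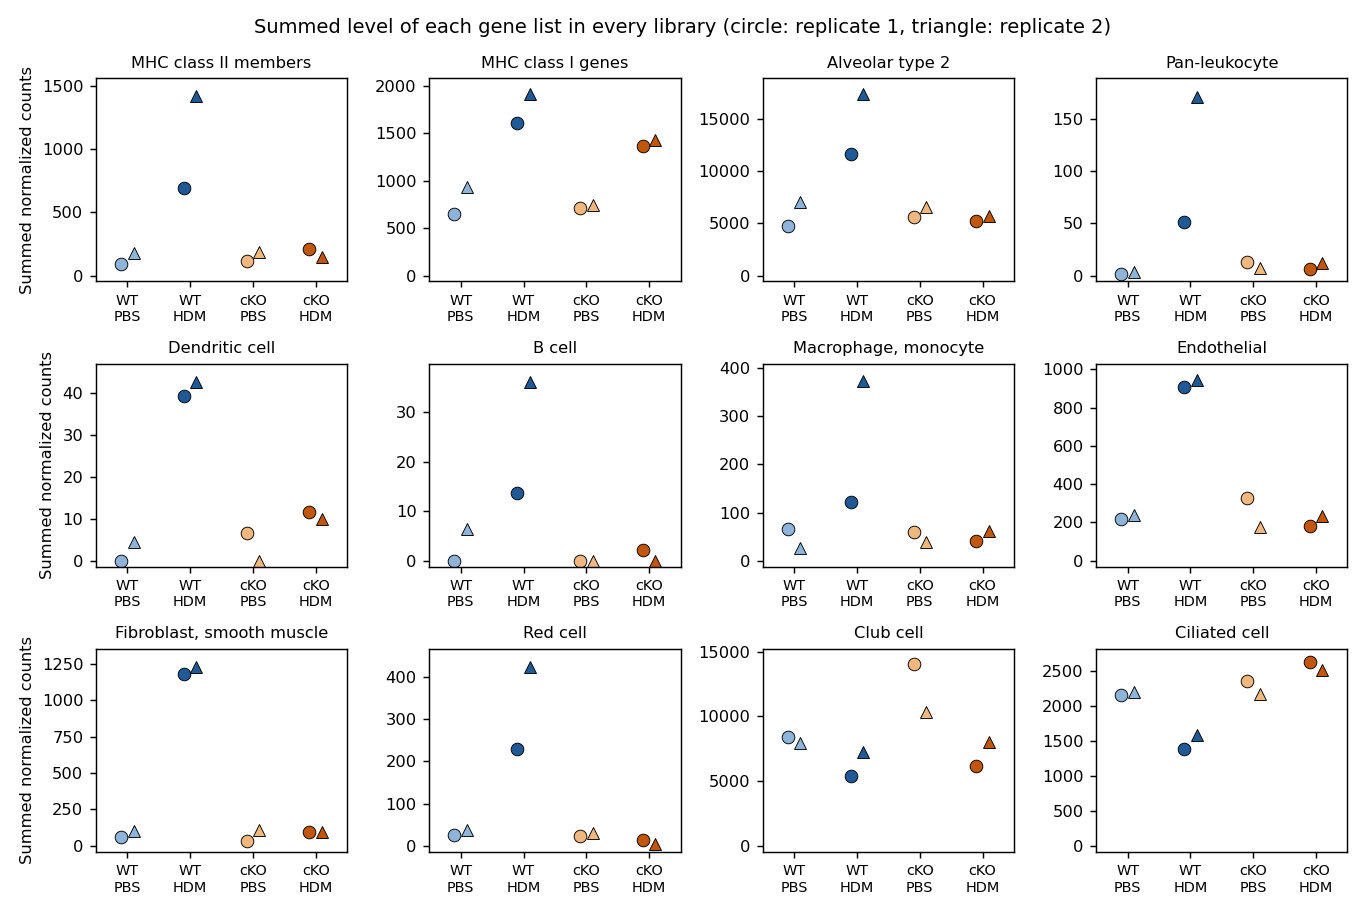
Summed normalized counts of the class II members, MHC class I genes and marker lists of 10 cell types in each library (circle, replicate 1; triangle, replicate 2), each panel with its own axis starting just below 0. The class II sum, like the leukocyte, alveolar type 2, endothelial, fibroblast and red cell sums, is highest in the 2 WT HDM libraries, while the class I sum is high in both HDM groups and the ciliated sum is lowest in WT HDM.

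The genes whose profile was most like that of the class II genes were found by Pearson's r, over the 8 libraries on the log2(value + 1) scale, to the mean of the 5 tested members after each was scaled to unit variance. Among 7345 genes ranked the 10 highest were Ppic (0.980), Lrrk2 (0.98), Map3k9 (0.964), Ager (0.957), Cxcl15 (0.952), Il4ra (0.950), Ctsc (0.950), Thbs1 (0.941), Sftpa1 (0.937) and Adgrf5 (0.935). All points share the 8 libraries and their depth. H2-DMb1 is part of the profile and was tested only because the WT HDM libraries were high. Il4ra likewise averaged under 10 normalized counts without WT HDM, so its likeness partly follows from the filter. Cxcl15, a lung chemokine, and Sftpa1, surfactant protein A, are on the alveolar type 2 list, and Ager, the RAGE receptor, is on the alveolar type 1 list. Ctsc encodes the dipeptidase cathepsin C, and Il4ra the receptor chain shared by interleukin-4 and interleukin-13.

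Of these 10, Lrrk2, a kinase gene, was 14.5 and 26.4 normalized counts in WT PBS, 90.0 and 110 in WT HDM, 29.3 and 27.9 in cKO PBS and 24.7 and 27.4 in cKO HDM. Only WT HDM stood apart. Ager was 170 and 240 in WT HDM and 55.9 to 87.6 elsewhere, and Cxcl15 1131 and 1503 in WT HDM and 347 to 527 elsewhere. The second WT HDM library was the higher of the pair for 8 of the 10 genes, but not for Il4ra (52.2 and 46.4) or Ctsc (199.6 and 198.5).

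**Figure D5:**
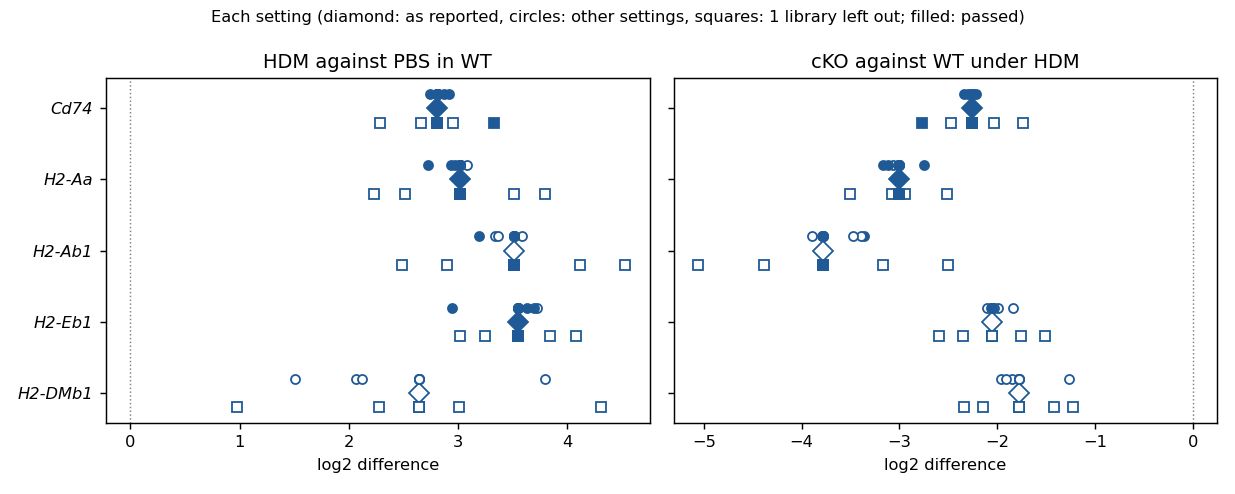
Log2 differences of the 5 tested class II genes for HDM against PBS in WT and for cKO against WT under HDM under each setting; diamonds are as reported, circles other settings, squares fits with 1 library left out, and filled symbols passed. The sign is the same throughout each panel. As libraries are left out, Cd74, H2-Aa and H2-Ab1 change between filled and open in both panels, and H2-Eb1 does so for HDM in WT.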

How the data were processed

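The authors deposited 1 table of gene symbols and read counts after normalization, a signal value per gene and library. HOMER, DESeq2 and the build mm10 are named in the submitters' processing notes. The sources used here do not give the aligner, annotation, versions or use of strand. Whole reads were recovered, since 100% of the deposited values were whole multiples of the value of 1 read within 0.01 reads.

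Values were analysed as log2(value + 1), which understates the change of low genes, in genes with a mean of at least 10. limma 3.58.1 (R 4.3.3) fitted 1 mean per group over 8 libraries with a variance trend; errors on log2 differences are standard errors. P-values were two-sided and adjusted by Benjamini-Hochberg over 7512 genes, with 0.05 as the threshold. edgeR 4.0.16 (quasi-likelihood, 56 genes higher and 3 lower for HDM in WT) and DESeq2 1.42.0 used the recovered reads, and other alternatives changed the pseudocount, filter, size factors, variance model, replicate block or libraries. Gene spans are from RefSeq (GRCm38.p6), strands and median transcript lengths from GENCODE M21.

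Named beside the members were list genes that passed, or else the 2 of smallest p, fixed markers, Stat3 and the 10 most similar genes; 1 gene under this rule is not reported here. Members and lists were chosen with earlier results of these data known. The fit was tested on simulated data.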

Additional observations from a re-analysis of the deposited data

How the results depend on the processing

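The count of class II genes that rose with HDM in WT, 3 as reported, was 1 with a pseudocount of 0.2, 1 with no filter on low values and 0 without the variance trend, and lay between 0 and 4 with 1 library left out. The count that fell in cKO against WT under HDM, 2 as reported, was 1 with a pseudocount of 0.2, 0 with no filter, 0 without the trend and 4 with only the groups compared, and lay between 0 and 3 with 1 library left out. In the interaction, 0 as reported, DESeq2 gave 2, and leaving out 1 library gave 0 to 1, the 1 being H2-Aa without the second cKO PBS library. The cause was not tested. A lone library left in a group is assumed to vary like the other groups. In these 3 comparisons the differences of the 5 tested members kept their sign in every setting run.

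Only differences that had not passed reversed, each with 1 library left out. For HDM in cKO, H2-Ab1 ranged from -2.13 to 0.42 (positive at 0.42 and 0.05 when the second library of cKO HDM or of cKO PBS was left out) and H2-Eb1 from -0.35 to 0.73 (negative at -0.35 and -0.28 when the first library of either was left out). For cKO against WT under PBS, Cd74 ranged from -0.79 to 0.26 (positive without the first cKO PBS library), H2-Aa from -0.13 to 1.43 (negative without the first WT PBS library) and H2-Ab1 from -0.44 to 1.6 (negative at -0.44 without the first WT PBS and -0.32 without the second cKO PBS library).

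Replicate numbers did not pair the libraries: over 6 pairs of groups the deviations correlated between -0.02 and 0.02. With the replicate block 3 members rose (Cd74 limma adjusted p = 0.0014) and 2 fell (Cd74 adjusted p = 0.0091). Over all genes, the 38 that rose with HDM in WT were 1 to 152 in other settings (114 with DESeq2), and the 39 that fell in cKO under HDM were 0 to 120. Depth limits H2-DMa and Ciita, at 58 and 32 reads in all.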
